A study of Mus musculus with 4 samples.

Results

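Mitochondrial ribosomal proteins are the protein subunits of the ribosome inside mitochondria. The genes described here are those of the Mouse Genome 430 2.0 array with a symbol of Mrpl or Mrps followed by a digit in the platform annotation and at least 1 probe set assigned to that gene alone. They number 76 of the 18193 genes with such a probe set, 47 with Mrpl symbols and 29 with Mrps symbols. Where a gene had several such probe sets, the one with the highest signal averaged over the 4 arrays was read. Mrpl30 and Mrpl53 have only probe sets shared with other genes and were not used.

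The 4 arrays held gastrocnemius muscle of knockout mice starved for 24 h, knockout mice fed ad libitum, control mice starved for 24 h and control mice fed ad libitum, with water at hand during starvation. Knockout mice were FoxO1,3,4-/-, that is floxed at Foxo1, Foxo3 and Foxo4 and carrying Cre recombinase driven by the MLC1f promoter. Per the study this Cre is active in type II (fast) fibres and not in type I fibres, and muscle also holds cells other than fibres, so that FoxO transcripts of type I fibres and other cells can remain in the knockout pools. Control mice, called wild type in the labels, were FoxO1,3,4 f/f, with floxed alleles and no Cre. All mice were male and of a mixed C57BL/6N and FVBN background, and age is not given per array in the sources used here. Each array was hybridised with 1 equimolar RNA pool from 6 muscles of 3 mice. Since each condition has 1 array, no spread between animals, no test and no interval can be given, and precision is limited by how few arrays there are.

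The mitochondrial ribosome translates the few messages encoded in mitochondrial DNA, all of which specify subunits of the oxidative phosphorylation complexes. Its ribosomal RNAs come from mitochondrial DNA, while all its proteins are encoded in the nucleus, made in the cytosol and imported. About the decoding site of the small subunit and the peptidyl transferase centre of the large subunit the proteins have counterparts in bacteria, and around them lie proteins particular to mitochondria. Skeletal muscle is rich in mitochondria, and FoxO factors are transcription factors that insulin signalling holds inactive in fed muscle.

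The deposited signals are MAS 5.0 values on a linear scale. They have not been brought to a common level: the median over all probe sets was 22.9 on the starved and 23.8 on the fed knockout array, against 26.0 for starved control muscle and 26.3 for fed control muscle. Ratios of knockout to control arrays were shifted down as a whole, with a median log2 ratio over the 12545 genes past the filter of -0.16 starved and -0.20 fed. Ratios below are log2 ratios of deposited signals, and they are set beside these medians. A gene passed the filter if its probe set was at or above the median signal of 1 or more arrays. The 8 muscle fibre markers were all high, the lowest at 9282.5, and none changed by 1.5-fold in any ratio. Foxo4 had signals of 34.3 starved and 31.3 fed in knockout muscle, and 291.3 starved and 296.9 fed in control muscle. Foxo1 was at 165.5 starved and 185.2 fed in knockout muscle, and at 554.4 starved and 303.8 fed in control muscle, whereas Foxo3 was at 460.9 and 297.3 in the starved and fed knockout pools and at 477.8 and 250.1 in the starved and fed control pools. The level of Foxo3 therefore did not separate the genotypes on the probe set with the highest signal. The study itself reports less Foxo3 transcript in knockout tibialis anterior muscle by RT-PCR, and less FoxO3 protein in knockout gastrocnemius. Of 5 blood cell markers, 3 were measured past the filter, and their summed signal was 158.5 starved and 226.9 fed in knockout muscle, and 436.0 starved and 184.5 fed in control muscle. The summed signal of 5 fibroblast markers was 16707.5 starved and 20939.8 fed in knockout muscle, and 17934.0 starved and 23771.6 fed in control muscle. The 9 hair and skin markers summed to 1655.9 on the starved knockout array, against 677.3 to 969.7 on the other arrays. The 6 slow fibre markers, of the fibres in which Cre is not active, summed to 26549.7 starved and 28446.6 fed in knockout muscle, and to 22946.4 starved and 25731.2 fed in control muscle. The summed signal of 5 macrophage markers was 2234.0 starved and 2503.9 fed in knockout muscle, and 3000.3 starved and 3255.5 fed in control muscle, and that of 5 endothelial markers was 1861.1 starved and 1926.4 fed in knockout muscle, and 2144.6 starved and 2452.5 fed in control muscle. Both were lower on the knockout arrays, as were the deposited signals as a whole. The median log2 ratio of knockout over control was -0.41 starved and -0.40 fed over the macrophage markers. Over the endothelial markers it was -0.12 starved and -0.33 fed, against -0.16 and -0.20 over all genes. The part of these cells in the values below was not tested.

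All 76 genes were expressed in all 4 pools at signals above the array median, and all reached the 75th percentile of at least 1 array, as did 7575 of the genes past the filter. The median over the 76 genes was 729.25 starved and 825.45 fed in knockout muscle, and 813.75 starved and 888.75 fed in control muscle. Mean signals ran from 133.5 for Mrps27 to 5042.9 for Mrpl42, although signals of different probe sets share no scale, so that this is not an order of abundance. The highest were Mrpl42 and Mrpl51, both particular to the mitochondrial large subunit, then Mrpl33, Mrps14, Mrpl23 and Mrpl15, which have counterparts in bacterial ribosomes. Mrpl42 had signals of 4921.4 starved and 5441.4 fed in knockout muscle, and 4528.1 starved and 5280.7 fed in control muscle. Mrpl51 had 4555.1 starved and 4315.2 fed in knockout muscle, and 4394.5 starved and 4915.7 fed in control muscle. The order of the pools differed between these genes, and neither reached 1.5-fold in any ratio. Because whole muscle was profiled, fewer cells of a type and less RNA per cell cannot be told apart in any of these signals.

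Few of the genes moved past 1.5-fold in any direction, and their ratios were spread over a narrower range than those of all genes. On starvation, 69 of 76 genes stayed within a ratio of 5 to 4 either way in knockout muscle and 57 of 76 in control muscle. Over all genes these counts were 7930 and 6604 of 12545, and among genes at the 75th percentile of an array 5578 and 4413 of 7575. The interquartile range of the log2 ratio of starved over fed was 0.19 in knockout muscle and 0.29 in control muscle, against 0.44 and 0.57 over all genes. For knockout over control it was 0.24 starved and 0.14 fed, against 0.50 and 0.34 over all genes. Among the 7575 genes at the 75th percentile of an array the same measure gave interquartile ranges of 0.34 and 0.50 for starvation in knockout and control muscle, and of 0.43 and 0.26 for knockout over control in the starved and fed state. The ranges of the mitochondrial ribosomal protein genes were narrower than these in all 4 ratios. The genes at the 75th percentile share only a lower limit of signal with the 76, and no set matched on signal was compared. A narrow range was not particular to this group. For starvation in knockout and control muscle it was 0.08 and 0.15 over 80 nuclear genes of oxidative phosphorylation subunits. Over 45 cytosolic ribosomal protein genes it was 0.11 and 0.18. For knockout over control, starved and fed, it was 0.12 and 0.09 in the former set and 0.13 and 0.13 in the latter.

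**Figure D1:**
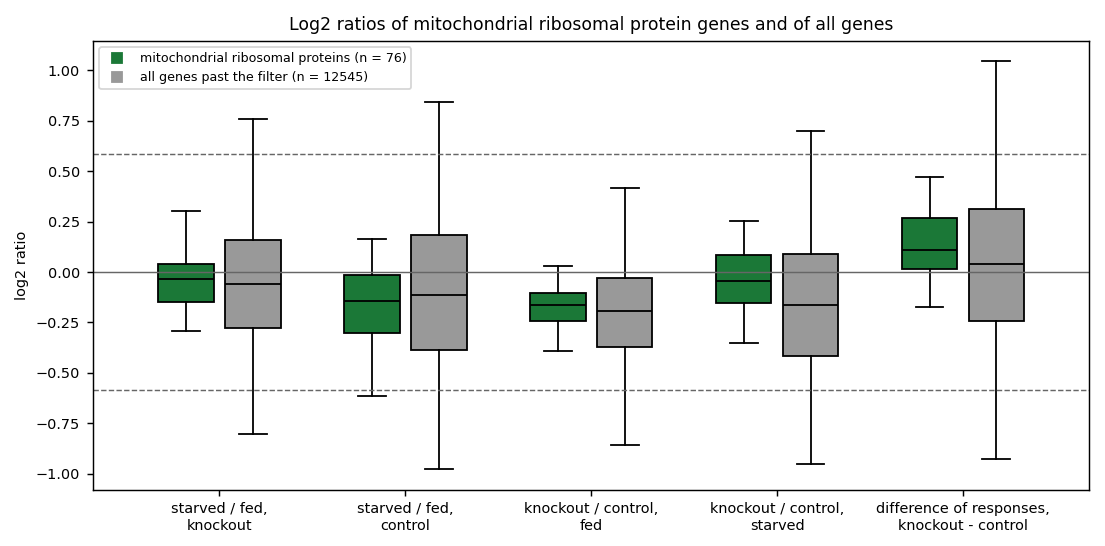
Log2 ratios (y axis) of the 76 mitochondrial ribosomal protein genes (green) and of all 12545 genes past the filter (grey) in the 4 ratios of signals and in the difference of the starvation responses (x axis). Boxes span the interquartile range with the median as a line, whiskers run from the 5th to the 95th percentile of genes and dashed lines mark 1.5-fold; the green boxes are shorter than the grey ones in every column.

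Starvation was read first within each genotype. In knockout muscle 1 gene, Mrps35, was up 1.5-fold or more and none was down, against 7.28% of all genes up and 9.41% down, and 3.78% up among genes at the 75th percentile. The median over the 76 genes was -0.04 as deposited, against -0.06 over all genes, and it turned to 0.02 once all arrays were scaled to 1 median, so that no direction can be given. In control muscle none was up and 5 were down past 1.5-fold, Mrpl45, Mrpl48, Mrpl19, Mrps11 and Mrps22, against 9.17% of all genes up and 14.2% down, and 11% down among genes at the 75th percentile. Here the median was -0.14 against -0.11 over all genes, and 48 of 76 genes lay below the median of all genes. The 5 genes down in control muscle are 6.58% of the 76, a smaller share than among all genes.

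**Figure D2:**
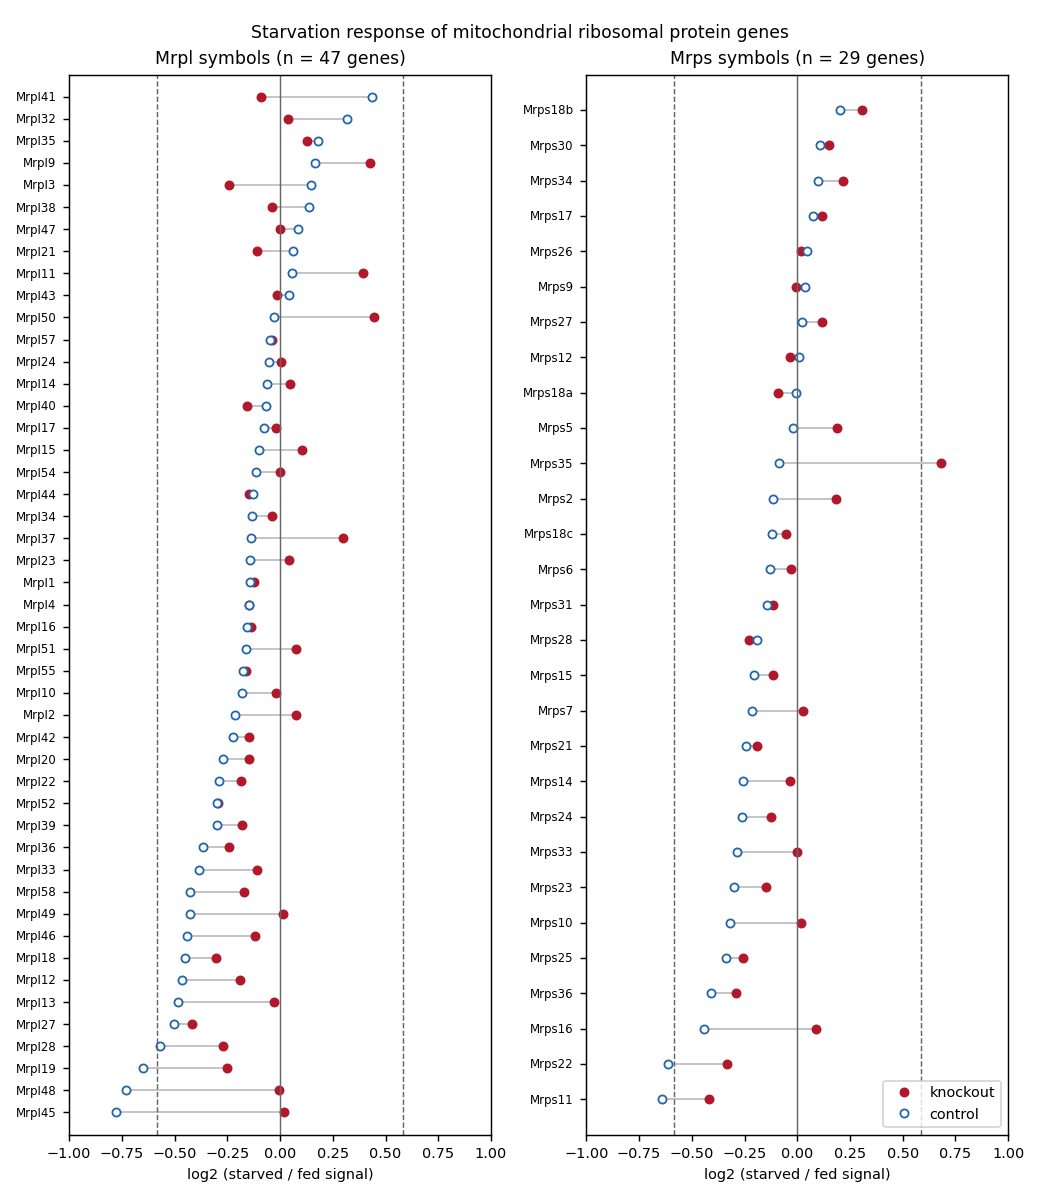
Log2 ratio of starved over fed signal (x axis) for each of the 76 genes (y axis, ordered within each panel by the control ratio), in knockout muscle (filled red) and control muscle (open blue), each ratio from 2 arrays. The 1.5-fold threshold is dashed; Mrpl45, Mrpl48, Mrpl19, Mrps11 and Mrps22 lie past the lower line in control muscle and only Mrps35 lies past the upper line, in knockout muscle.

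The lowest ratio in control muscle was that of Mrpl45, a protein at the mouth of the polypeptide exit tunnel that holds the ribosome at the inner membrane. Mrpl45 had signals of 531.3 starved and 524.1 fed in knockout muscle, and 372.5 starved and 637.9 fed in control muscle. The starved control pool was the lowest of the 4 and the fed control pool the highest, with the 2 knockout pools between them and almost equal. The log2 ratio of starved over fed was 0.02 in knockout muscle and -0.78 in control muscle, a difference of 0.80 or 1.74-fold. Mrpl45 has 1 probe set on the array.

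Mrpl48, a mitochondria-particular protein of the central protuberance, had signals of 660.0 starved and 661.7 fed in knockout muscle, and 457.3 starved and 758.6 fed in control muscle. As for Mrpl45, the starved control pool was the lowest and the fed control pool the highest. The log2 ratios were 0.00 in knockout muscle and -0.73 in control muscle, with a difference of 0.73. Of its other 2 probe sets, one gave the same order of pools. It read 334.9 starved and 343.5 fed in knockout muscle, and 315.1 starved and 437.0 fed in control muscle, a smaller difference of responses of 0.44. The other was dim and gave a difference of the opposite sign, -0.15. With the probe sets averaged, the difference for Mrpl48 was 0.34 and no longer reached 1.5-fold.

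Mrpl19, the counterpart of bacterial L19 in the large subunit, had signals of 248.2 starved and 295.6 fed in knockout muscle, and 208.2 starved and 327.0 fed in control muscle. A second probe set gave 204.9 and 244.6 in starved and fed knockout muscle, and 173.8 and 285.1 in starved and fed control muscle, in the same order, while another, dim one gave -0.09 in control muscle. On the first, both starved pools were below both fed pools, with log2 ratios of -0.25 in knockout muscle and -0.65 in control muscle. Mrps11, the counterpart of bacterial S11 on the platform of the small subunit, had signals of 297.3 starved and 397.8 fed in knockout muscle, and 275.1 starved and 428.7 fed in control muscle. Its ratios were -0.42 in knockout muscle, the lowest of the 76 there, and -0.64 in control muscle. Mrpl52, a large-subunit protein particular to mitochondria, was the fifth lowest in knockout muscle at -0.29, and was at -0.30 in control muscle. Other probe sets of Mrpl52 past the filter gave smaller falls, -0.10 and -0.18 in knockout muscle, and -0.23 and -0.03 in control muscle. Mrps22, a small-subunit protein particular to mitochondria, had signals of 444.8 starved and 560.3 fed in knockout muscle, and 404.3 starved and 619.0 fed in control muscle. For Mrps22 too both starved pools were below both fed pools, at -0.33 in knockout muscle and -0.61 in control muscle. Read against the median of all genes, Mrpl45 at -0.66 and Mrpl48 at -0.62 stayed past 1.5-fold in control muscle, whereas Mrpl19, Mrps11 and Mrps22, at -0.54, -0.53 and -0.50, did not.

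The promoters of genes past the threshold are shown for the sequence around their start. RefSeq promoter windows of build GRCm38.p6, 300 bases from 250 before to 50 after the start of the transcript, were matched by gene identifier for 67 of the 76 genes, with 73 promoters in all. Mrpl45, Mrps11 and Mrps22 each have 1 such promoter and are shown here, whereas Mrpl48 has 4 promoter windows and is left out, and Mrpl19 and Mrps35 were not matched. The sequences run 5′ to 3′ on the strand of the gene, with capitals marking matches, on either strand, to the motifs searched. The Mrpl45 promoter (chr11:97315466-97315765, plus strand) holds 2 matches to TGCGCA, a short motif of the nuclear respiratory factor NRF1. The Mrps11 promoter (chr7:78782881-78783180, plus strand) holds 1 match to ATGGCGGC, a core motif of the factor YY1. The Mrps22 promoter (chr9:98601630-98601929, minus strand) holds 1 match to CCGGAAG, a core motif of ETS factors such as GABPA.
Mrpl45: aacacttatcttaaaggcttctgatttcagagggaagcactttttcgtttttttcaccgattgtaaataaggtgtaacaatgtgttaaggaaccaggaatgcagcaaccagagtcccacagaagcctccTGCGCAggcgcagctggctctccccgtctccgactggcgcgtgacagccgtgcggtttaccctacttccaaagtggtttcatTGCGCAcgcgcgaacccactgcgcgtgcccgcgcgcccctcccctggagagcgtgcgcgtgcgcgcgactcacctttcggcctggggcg
Mrps11: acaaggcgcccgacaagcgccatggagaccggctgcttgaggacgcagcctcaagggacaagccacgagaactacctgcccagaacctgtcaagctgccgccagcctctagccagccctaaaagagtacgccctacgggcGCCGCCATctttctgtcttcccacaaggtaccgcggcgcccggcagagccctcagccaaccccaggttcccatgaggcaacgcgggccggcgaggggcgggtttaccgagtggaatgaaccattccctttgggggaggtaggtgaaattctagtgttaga
Mrps22: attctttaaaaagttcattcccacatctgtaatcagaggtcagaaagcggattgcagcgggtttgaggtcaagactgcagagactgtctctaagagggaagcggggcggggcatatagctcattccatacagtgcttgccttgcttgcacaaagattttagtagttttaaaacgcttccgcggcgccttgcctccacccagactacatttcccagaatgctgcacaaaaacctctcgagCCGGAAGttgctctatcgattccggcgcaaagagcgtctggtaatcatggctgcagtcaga

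These motifs were frequent in the promoters of the whole group. CCGGAAG was found in 25 of the 73 promoters (34.2%), against 8.86% of all 32851 promoters of this length and 16.0% of the 12963 promoters of genes past the filter. TGCGCA was found in 22 (30.1%), against 7.76% of all promoters and 12.8% of those of genes past the filter. The longer NRF1 core GCGCATGC, which can overlap TGCGCA, was found in 8 (11.0%), against 2.71% and 4.75%. ATGGCGGC was found in 11 (15.1%), against 2.24% and 4.37%. GTAAACA, a core motif of FoxO factors, was found in 2 (2.74%), against 3.65% of all promoters and 2.73% of those of genes past the filter. Both strands were searched for each motif, and a match is a description of letters, not of binding. The starvation response in control muscle had a median of -0.16 in the 25 genes with CCGGAAG and -0.15 in the 42 without, and of -0.13 in the 21 genes with TGCGCA and -0.17 in the 46 without. In the 11 genes with ATGGCGGC the median was -0.02, against -0.18 in the 56 without it.

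The highest starvation ratio was that of Mrps35 in knockout muscle and that of Mrpl41 in control muscle, while Mrpl9 and Mrps18b were among the 5 highest in both. Mrps35, a mitochondria-particular protein of the small subunit, had signals of 593.5 starved and 370.7 fed in knockout muscle, and 504.4 starved and 536.0 fed in control muscle. The fed knockout pool was low and the other 3 pools lay higher, with the starved knockout pool the highest. The log2 ratio was 0.68 in knockout muscle, or 1.60-fold, and -0.09 in control muscle, a difference of 0.77. Mrps35 too has 1 probe set. Mrpl50, a large-subunit protein particular to mitochondria, had signals of 498.6 starved and 366.5 fed in knockout muscle, and 378.5 starved and 386.1 fed in control muscle. Its ratio in knockout muscle, 0.44, did not reach the threshold, and a second probe set read 310.9 and 279.0 in starved and fed knockout muscle. Mrpl9, the counterpart of bacterial L9, was at 599.3 starved and 445.6 fed in knockout muscle, and at 587.3 starved and 524.3 fed in control muscle.

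Mrpl41, a mitochondria-particular protein of the large subunit, had the highest starvation ratio in control muscle, 0.44. Its signals were 790.2 starved and 840.6 fed in knockout muscle, and 1226.0 starved and 906.7 fed in control muscle. A second probe set gave 801.0 and 737.0 in starved and fed knockout muscle, and 1249.7 and 967.9 in starved and fed control muscle, so that the starved control pool was the highest on both. Mrpl32, whose precursor is matured by the m-AAA protease of the inner membrane, had signals of 1487.7 starved and 1447.5 fed in knockout muscle, and 1941.8 starved and 1556.3 fed in control muscle. For Mrpl32 as well the starved control pool stood above the other 3, with a ratio of 0.32. Mrps18b at 0.20, Mrpl35 at 0.18 and Mrpl9 at 0.16 followed. Other probe sets of 2 of these genes differ: one of Mrpl35, at 152.0 starved and 236.7 fed in control muscle, gave -0.64, and one of Mrpl9, at 241.2 starved and 166.0 fed in control muscle, gave 0.54.

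**Figure D3:**
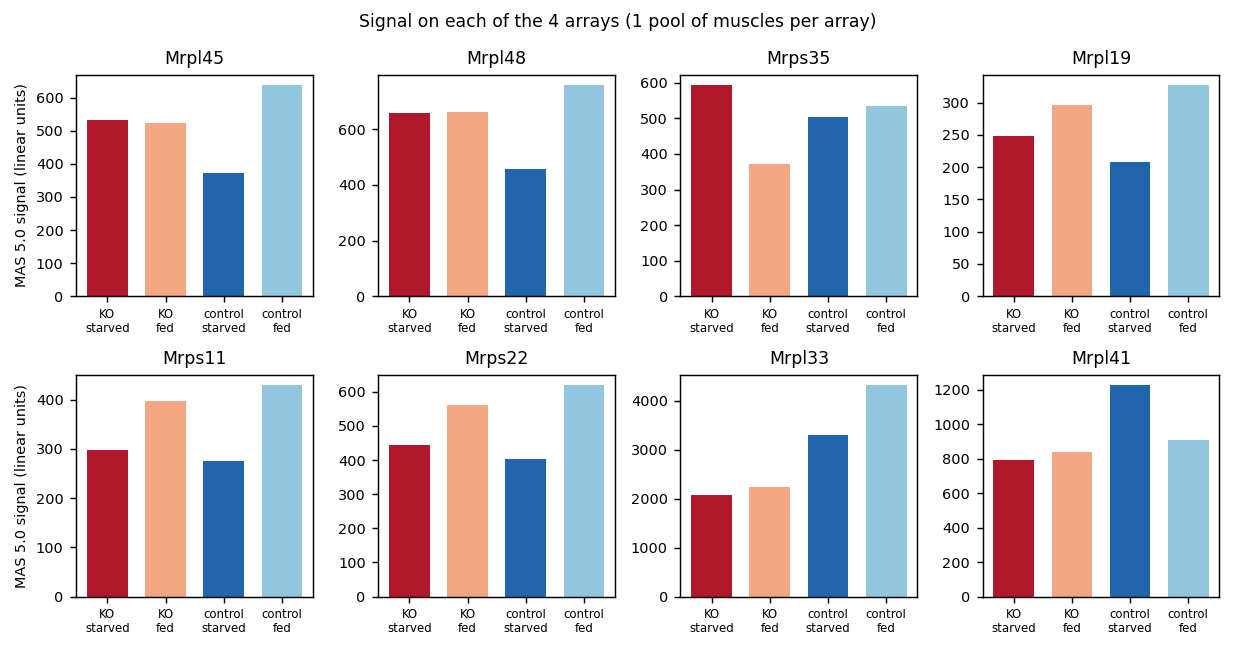
MAS 5.0 signal (y axis, linear units from 0) of the 8 mitochondrial ribosomal protein genes past 1.5-fold in at least 1 ratio, on the 4 arrays (x axis, KO is knockout), 1 bar per pooled array and no error bar because no condition has a replicate. Mrpl45 and Mrpl48 are lowest in starved control muscle, Mrps35 is lowest in fed knockout muscle, Mrpl33 is lower on both knockout arrays than on both control arrays and Mrpl41 is highest in starved control muscle.

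Whether the response to starvation differed between genotypes was read from the difference of the log2 ratios, knockout minus control. At 1.5-fold, 3 genes were past the threshold upward, Mrpl45, Mrps35 and Mrpl48, and none downward, against 12.2% of all genes upward and 10.3% downward, and 6.68% upward among genes at the 75th percentile. The median difference was 0.11 against 0.04 over all genes, and 60 of the 76 genes had a difference above 0, that is 78.9% of them against 54.3% of all genes. After scaling to 1 median for all arrays these medians were 0.15 and 0.08. A difference above 0 was not particular to the 76 genes. As deposited, it was above 0 in 73 of 80 oxidative phosphorylation subunit genes (median 0.14) and in all 8 muscle fibre markers (median 0.12). In the cytosolic ribosomal protein genes it was above 0 in 31 of 45 (median 0.04). Among the 76, Mrps16, the counterpart of bacterial S16, came next after Mrpl48 at 0.53. Its signals were 2023.8 starved and 1905.8 fed in knockout muscle, and 1467.9 starved and 1992.1 fed in control muscle. In Mrps16, as in Mrpl45 and Mrpl48, the starved control pool stood below the other 3. The fifth was Mrpl50 at 0.47.

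At the other end stood Mrpl41 at -0.52, Mrpl3 at -0.39, Mrpl32 at -0.28, and Mrpl38 and Mrpl21, both at -0.17. Mrpl3, the counterpart of bacterial L3 near the peptidyl transferase centre, had signals of 700.6 starved and 829.6 fed in knockout muscle, and 878.5 starved and 794.5 fed in control muscle. A second probe set gave 331.5 and 375.7 in starved and fed knockout muscle, and 421.7 and 369.1 in starved and fed control muscle, in which the starved pools again lay at opposite ends. Another, dim probe set of Mrpl3 gave a difference of the opposite sign, 0.65. On the second probe set of Mrpl41 the difference was -0.25.

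The order of the 4 pools gives the same data without a threshold. As deposited, the starved control pool had the lowest signal in 22 of the 76 genes (28.9%), against 22.1% of all genes. After that scaling the count was 45 of 76 (59.2%), against 34.8% of all genes and 38.7% of those at the 75th percentile, so that this count depends on the scale of the arrays. Both starved pools were below both fed pools in 28 genes (36.8%), against 28.3% of all genes, as deposited, and in 24 genes, against 27.1% of all genes, after scaling. Both knockout pools were below both control pools in 30 genes (39.5%), against 36.9% of all genes, as deposited. After scaling, 6 genes had that order, against 17.6% of all genes: Mrpl20, Mrpl33, Mrpl34, Mrpl40, Mrps12 and Mrps9.

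Loss of FoxO was read as knockout over control in each feeding state, on the same 4 arrays as the starvation ratios. In fed muscle 1 gene, Mrpl33, was down past 1.5-fold and none was up, against 11.2% of all genes down and 3.33% up, and 5.37% down among genes at the 75th percentile. The median over the 76 genes was -0.16 against -0.20 over all genes, and after scaling it was -0.02 against -0.05. In starved muscle Mrpl33 and Mrpl41 were down and none was up, against 14.5% of all genes down and 6.3% up, and 10.9% down among genes at the 75th percentile. These counts turned round under all 3 scalings of the arrays, to 3 genes up and 0 down. The median in starved muscle was -0.05 as deposited and 0.14 after scaling, a change of sign. As deposited, 60 of the 76 genes lay above the median of all genes, a count that a scale factor per array leaves almost fixed. It was 56 after quantile normalization, 50 with 50 added to each signal and 54 with the probe sets of a gene averaged. A place above the median of all genes was not particular to the 76. As deposited, 76 of 80 oxidative phosphorylation subunit genes, 34 of 45 cytosolic ribosomal protein genes and all 8 muscle fibre markers also lay above it. The medians of these sets were 0.22, 0.06 and 0.23 above that of all genes, against 0.12 for the 76.

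Mrpl33, the counterpart of bacterial L33, was the one gene past the threshold in both feeding states. Its signals were 2071.8 starved and 2233.5 fed in knockout muscle, and 3306.0 starved and 4314.6 fed in control muscle. Both knockout pools were below both control pools, with log2 ratios of -0.67 starved and -0.95 fed. Set against the median of all genes these were -0.51 and -0.75, so that only the fed ratio stayed past 1.5-fold. The other probe set of Mrpl33 did not pass the filter. Mrpl41, given above, had a ratio of knockout over control of -0.63 in starved muscle and -0.11 in fed muscle, and the starved ratio was -0.47 against the median of all genes. The promoters of Mrpl33 and Mrpl41, the genes past the threshold downward in knockout over control as deposited, are set side by side with the same motifs in capitals. The Mrpl33 promoter (chr5:31613701-31614000, plus strand) holds 1 match to GCGCATGC and 1 to CCGGAAG a base apart, and the Mrpl41 promoter (chr2:24975049-24975348, minus strand) holds no match to any of the 5 motifs.
Mrpl33: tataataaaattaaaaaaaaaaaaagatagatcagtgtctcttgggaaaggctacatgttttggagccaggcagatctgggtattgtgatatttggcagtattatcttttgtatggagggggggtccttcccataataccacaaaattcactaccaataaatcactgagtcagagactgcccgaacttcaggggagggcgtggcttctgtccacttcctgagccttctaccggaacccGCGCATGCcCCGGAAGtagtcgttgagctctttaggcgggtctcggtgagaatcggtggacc
Mrpl41: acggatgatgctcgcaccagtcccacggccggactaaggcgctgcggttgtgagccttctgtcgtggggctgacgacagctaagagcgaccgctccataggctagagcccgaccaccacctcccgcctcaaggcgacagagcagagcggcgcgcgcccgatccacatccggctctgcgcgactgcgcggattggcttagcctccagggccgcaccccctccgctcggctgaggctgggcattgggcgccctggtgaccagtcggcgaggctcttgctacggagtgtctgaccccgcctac

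Other genes low in knockout muscle did not reach the threshold. Mrpl20, the counterpart of bacterial L20, had signals of 594.7 starved and 659.5 fed in knockout muscle, and 723.1 starved and 870.8 fed in control muscle, and both knockout pools were below both control pools. Mrps12, the counterpart of S12 at the decoding centre, had 593.6 starved and 608.2 fed in knockout muscle, and 775.3 starved and 771.7 fed in control muscle. Its 2 knockout pools and its 2 control pools each lay within a few percent of one another, with ratios of -0.39 starved and -0.34 fed. Mrpl40, a protein of the central protuberance, was at 403.4 starved and 449.3 fed in knockout muscle, and at 514.2 starved and 538.7 fed in control muscle. At the upper end of the starved comparison stood Mrpl48 at 0.53, Mrpl45 at 0.51, Mrps16 at 0.46, Mrpl50 at 0.40 and Mrpl19 at 0.25. In each of these but Mrpl50 the starved control pool had the lowest signal. In fed muscle the highest ratios were 0.06 for Mrpl55 and Mrpl3, close to equal signals.

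By subunit the medians lay close together. The median starvation ratio in control muscle was -0.15 over the 47 Mrpl genes and -0.14 over the 29 Mrps genes, and in knockout muscle -0.04 and -0.03. The symbols do not follow the subunits throughout, since Mrps30 and Mrps18a belong to the large subunit and Mrps36 is a subunit of the 2-oxoglutarate dehydrogenase complex. Sorting by place and by ancestry gave, in control muscle, medians of -0.15 for 29 large-subunit genes with a bacterial counterpart, -0.13 for 20 large-subunit genes particular to mitochondria, -0.20 for 16 small-subunit genes with a bacterial counterpart and -0.11 for 10 small-subunit genes particular to mitochondria. In knockout muscle the same 4 classes had medians of -0.11, -0.04, -0.03 and 0.01. The median difference between genotypes lay between 0.10 and 0.12 in all 4 classes.

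Of the 3 parts of the large subunit that were read, the central protuberance, the exit site and the stalk, the central protuberance had the lowest median starvation ratio in control muscle. Its 6 genes had a median starvation ratio of -0.45 in control muscle and -0.14 in knockout muscle, with 4 of 6 below the median of all genes in both. Mrpl18, the counterpart of bacterial L18, had signals of 1642.7 starved and 2025.1 fed in knockout muscle, and 1448.6 starved and 1980.7 fed in control muscle. Mrpl27, whose bacterial counterpart reaches into the peptidyl transferase centre, had 1260.6 starved and 1682.1 fed in knockout muscle, and 1368.7 starved and 1938.3 fed in control muscle. Both starved pools were below both fed pools for Mrpl18 and for Mrpl27, with ratios of -0.30 and -0.42 in knockout muscle and of -0.45 and -0.50 in control muscle. Mrpl38, whose other 2 probe sets are dim and disagree with each other in sign, had its highest signal in starved control muscle, with 333.4 starved and 342.0 fed in knockout muscle, and 405.1 starved and 368.6 fed in control muscle.

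The polypeptide exit site, through which nascent proteins leave toward the membrane, had a median of 0.01 over its 7 genes in knockout muscle and of -0.08 in control muscle, with Mrpl45 its only gene past 1.5-fold. The stalk, which recruits translation factors, is built from Mrpl12 on a base of Mrpl10 and Mrpl11. Mrpl12 had signals of 1757.1 starved and 2002.4 fed in knockout muscle, and 1595.2 starved and 2199.1 fed in control muscle, a ratio of -0.19 in knockout muscle and -0.46 in control muscle. Mrpl10 changed little, at 381.9 starved and 386.9 fed in knockout muscle, and 376.9 starved and 427.4 fed in control muscle. Mrpl11 had 1077.3 starved and 821.3 fed in knockout muscle, and 1167.2 starved and 1123.2 fed in control muscle. That probe set is of a kind that can cross-hybridise, and another probe set of Mrpl11 read 773.8 starved and 885.4 fed in knockout muscle, and 862.3 starved and 963.8 fed in control muscle, so that the direction in knockout muscle depends on the probe set.

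The paralogues Mrps18a, Mrps18b and Mrps18c, all related to bacterial S18, are placed at different sites of the ribosome. Mrps18a, in the large subunit, had signals of 1072.4 starved and 1141.6 fed in knockout muscle, and 1254.1 starved and 1260.8 fed in control muscle. Mrps18b, in the small subunit, had 443.1 starved and 358.7 fed in knockout muscle, and 542.0 starved and 471.1 fed in control muscle. Mrps18c, at the place of bacterial S18, had 1377.4 starved and 1430.0 fed in knockout muscle, and 1416.6 starved and 1537.1 fed in control muscle. Mrps18b was the only one of the 3 with starved above fed signals in both genotypes, at 0.30 in knockout muscle and 0.20 in control muscle, and no ratio of the 3 genes reached 1.5-fold.

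Single genes with a role of their own also stayed below the threshold. Mrps36 was at 1656.7 starved and 2023.7 fed in knockout muscle, and at 1566.4 starved and 2081.4 fed in control muscle, both starved pools being the lower. Mrpl58, a peptidyl-tRNA hydrolase that frees stalled mitochondrial ribosomes, was at 757.9 starved and 854.2 fed in knockout muscle, and at 736.0 starved and 988.3 fed in control muscle. Mrpl44, which has a ribonuclease III-like fold, was at 437.5 starved and 484.3 fed in knockout muscle, and at 477.2 starved and 522.2 fed in control muscle. In Mrps36 and Mrpl58 starved pools were below the fed pools of the same genotype. For Mrpl44 the direction depends on the probe set, since another one read 411.8 starved and 327.5 fed in knockout muscle, and 503.4 starved and 382.9 fed in control muscle. Mrps30 was at 459.9 starved and 415.0 fed in knockout muscle, and at 474.3 starved and 439.5 fed in control muscle, with both starved pools the higher.

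Different probe sets of 1 gene gave the only scatter these arrays hold. Of the 76 genes, 34 had 1 single-gene probe set. For the 34 genes with 2 or more probe sets past the filter, 93 probe sets in all, the pooled SD between probe sets of a gene was 0.43 for the log2 starvation ratio in knockout muscle, 0.30 in control muscle and 0.49 for the difference of responses. At the 75th percentile, with 24 genes and 58 probe sets, these were 0.22, 0.19 and 0.25. Mrpl45 and Mrps35, each with 1 probe set, could not be read in this way. Among probe sets at the 75th percentile, those of a gene all had the same sign of the starvation ratio in control muscle in 19 of 24 genes. For the difference of responses this held in 14 of 24. Among all probe sets past the filter these counts were 20 and 12 of 34 genes. This scatter holds no difference between mice.

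The genes that work with the mitochondrial ribosome were read in the same way. Of mitochondrial ribosomal proteins with other names, such as Ptcd3 and Chchd1, or with a former name outside the Mrp series, 6 were measured, with a median of -0.06 in knockout muscle and -0.22 in control muscle and none past 1.5-fold in either. Mrpl57 and Mrpl58 are counted both there and among the 76. Other genes of mitochondrial translation showed medians in control muscle of -0.23 over 14 translation factors, -0.14 over 27 genes of ribosome assembly and ribosomal RNA modification, and -0.10 over 21 mitochondrial aminoacyl-tRNA synthetases and related enzymes. In knockout muscle the medians of these sets were -0.11, 0.06 and -0.12. Of the 14 translation factors 1 was down past 1.5-fold in knockout muscle and none was up, against 9.41% of all genes down and 7.28% up, and 1 was down in control muscle and none was up, against 14.2% and 9.17%. The gene in control muscle was Tsfm, the exchange factor of mitochondrial elongation factor Tu, with signals of 271.2 starved and 241.3 fed in knockout muscle, and 185.3 starved and 301.1 fed in control muscle. The starved control pool of Tsfm was the lowest, as for Mrpl45 and Mrpl48, and its difference of responses was 0.87. Of the 27 assembly genes 1 was up and none was down in knockout muscle, against 7.28% of all genes up and 9.41% down. In control muscle 3 were down and none was up, a share no larger than the 14.2% of all genes: Rpusd3 at -0.83, Mrm1 at -0.66 and Nsun4 at -0.61, all of which modify mitochondrial RNA. Of the 21 genes of the synthetase set 2 were up and 1 was down in knockout muscle, against the same 7.28% and 9.41%. Aars2 was the highest there at 1.30. In control muscle 1 was up, Aars2 at 1.57, against 9.17% of all genes, and 3 were down, against 14.2%, Pars2 at -0.84 and Qrsl1 at -0.74 being the lowest.

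Among 18 regulators of mitochondrial transcription and biogenesis, none was past 1.5-fold in knockout muscle, against 7.28% of all genes up and 9.41% down, and 3 were up and 2 down in control muscle, against 9.17% up and 14.2% down. The median was -0.05 in knockout muscle and 0.10 in control muscle. Ppargc1b, a coactivator of genes of mitochondrial biogenesis, had signals of 285.0 starved and 359.4 fed in knockout muscle, and 157.1 starved and 416.6 fed in control muscle. Its starved control pool was the lowest, with a ratio of -1.41 there. Myc, a transcription factor that drives ribosome production, had 81.0 starved and 78.8 fed in knockout muscle, and 193.9 starved and 89.2 fed in control muscle, a ratio of 1.12 in control muscle.

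The 80 nuclear genes of oxidative phosphorylation subunits and the 45 cytosolic ribosomal protein genes frame the group. The oxidative phosphorylation genes had a median starvation ratio of -0.04 in knockout muscle and -0.20 in control muscle, with 64 of 80 below the median of all genes in control muscle, against 48 of 76 mitochondrial ribosomal protein genes. The starved control pool was the lowest of the 4 in 55 of the 80 (68.8%) as deposited and in 70 (87.5%) after scaling. The cytosolic ribosomal protein genes had medians of 0.06 in knockout muscle and 0.03 in control muscle, and the starved control pool was the lowest in 5 of 45 (11.1%) as deposited and 9 (20.0%) after scaling. In share and in median the mitochondrial ribosomal protein genes thus lay between these sets. No test of the difference between the sets was made.

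**Figure D4:**
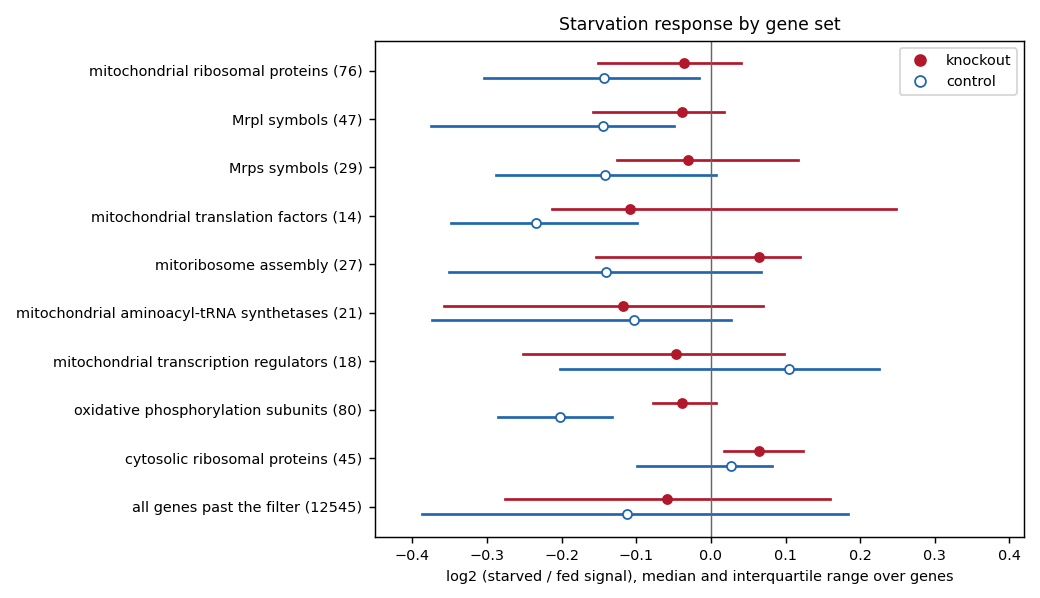
Log2 ratio of starved over fed signal (x axis) by gene set (y axis, number of genes in brackets), in knockout muscle (filled red) and control muscle (open blue); points are medians and lines the interquartile range over genes, not an error between animals. The median of mitochondrial ribosomal proteins is -0.14 in control muscle and -0.04 in knockout muscle, between oxidative phosphorylation subunits at -0.20 and cytosolic ribosomal proteins at 0.03 in control muscle.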

How the data were processed

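Gene expression was measured on 4 Affymetrix Mouse Genome 430 2.0 arrays, 1 per condition. The values the authors deposited are linear signal intensities summarised by MAS 5.0. Affymetrix Expression Console is also named in the submitters' processing notes, and the scaling target is not given in the sources used here. MAS 5.0 summarises each array alone, so that differences in overall level between arrays enter every ratio.

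The signals were used as deposited, and log2 ratios were computed in Python 3.11.15 (pandas 2.3.3, numpy 2.4.6). Any signal of 0 was replaced by 0.1, and plots were made in matplotlib 3.10.9. Of 45037 probe sets that are not Affymetrix controls, 34945 have 1 gene in the platform annotation, 932 several and 9160 none, and only those with 1 gene were used. Symbols were updated through the gene identifier in the RefSeq table of GRCm38.p6. The filter on dim probe sets required the 50th percentile of 1 or more arrays. The threshold of 1.5-fold is the study's own.

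The genes and lists were chosen with earlier results of these data known. Named genes are the 6 highest by mean signal, the 5 highest and 5 lowest in each ratio and in the difference of responses, those past 1.5-fold in 2 ratios without a shared array, 13 chosen for their roles, and up to 3 genes of each related set. Mrps27, Mrpl34 and Mrps9 are named outside this rule, after their values were seen. Cytosolic ribosomal protein genes were taken by symbol without S6 kinases, and oxidative phosphorylation genes without assembly factors. Alternatives covered the scaling of arrays, the filter, an offset of 50, the mean over probe sets and the threshold. Calling at the threshold was tested on simulated data with known changes. Protein sequences were not used here.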

Additional observations from a re-analysis of the deposited data

Results flagged for a closer look

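The starvation response had opposite signs in the genotypes past the 1.5-fold size for 2 genes. For Mrpl45 the log2 ratio of starved over fed was 0.02 in knockout muscle and -0.78 in control muscle, a difference of 0.80. For Mrps35 it was 0.68 in knockout muscle and -0.09 in control muscle, a difference of 0.77. The difference was not tested for either gene, since each condition has 1 array, and each gene has 1 probe set. The ratios of 0.02 and -0.09 lie close to equal signals.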

How the results depend on the processing

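Of the counts and medians over the 76 genes, 187 values under an alternative stayed close to those reported and 33 moved further. Close was within 0.1 on the log2 scale for a median, or 1.5 times for a count. Many of the 187 could not move, because all 76 genes pass every filter used. A scale factor per array also shifts all genes alike, which leaves values read against the median of all genes almost fixed. The tally is therefore no measure of stability. Scaling all arrays to the same median gave a median knockout over control ratio of 0.14 starved and -0.019 fed, with 3 genes up and 0 down starved. Scaling to the same trimmed mean gave 0.14 and 0.026, again 3 up and 0 down starved, and 3 down on starvation in control muscle. Quantile normalization gave 0.12 and 0.033, 3 up and 0 down starved, and 2 down on starvation in control muscle. An offset of 50 gave 2 down on starvation in control muscle, and 26 genes below the median of all genes in starved knockout over control muscle, against 16. The mean over probe sets gave 2 down on starvation in knockout muscle, 2 down in fed knockout over control muscle and 4 down in starved. At a threshold of 2-fold all these counts were 0. At a looser threshold, a ratio of 5 to 4, 4 genes were up and 3 down on starvation in knockout muscle, and 1 up and 18 down in control muscle. In knockout over control muscle 7 were down fed, and 4 up and 6 down starved. The difference of responses had 11 up and 2 down. In these 5 measures, in this order, 69, 57, 69, 66 and 63 of the 76 genes stayed within that ratio. Over all 12545 genes 7930, 6604, 7847, 6836 and 6997 did, so that larger shares of all genes lay outside it. The starved knockout over control calls of Mrpl33 and Mrpl41 were lost under all 3 scalings. In control muscle Mrps11 and Mrps22 were lost under the trimmed mean, quantile normalization and the offset, and Mrpl19 under quantile normalization, the offset and the mean over probe sets. A filter at the 75th percentile was chosen after the data were seen. All 76 genes pass it, so it could not change their calls or medians and is no check of them. No paired analysis was possible because each condition has 1 array, and no array could be left out. No limit from background can be stated without detection calls, which were not used here, and the 76 genes were above the median of each array.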
